A study of Mus musculus with 3 samples.

Results

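The genes described here encode proteins of the cornified envelope, the cross-linked protein shell of the dead cells at the skin surface. They are the genes in the control and metformin count tables whose symbol starts with Lce or Sprr, together with Lor, Flg, Flg2, Ivl, Hrnr, Rptn and Crct1. The rule used symbols and no measured value, and it found 43 of the 31053 genes. All 43 are annotated as protein coding and lie on chromosome 3 of mouse build GRCm38, between bases 92080271 and 93399442. In this stretch of 1.32 Mb, the epidermal differentiation complex, 11 other protein-coding genes lie among them. The minus strand carries 22 of the 43 genes and the plus strand 21.

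Keratinocytes divide in the basal layer, switch from Krt5 and Krt14 to Krt1 and Krt10 in the spinous layer, and load envelope proteins in the granular layer before they die. Involucrin (Ivl) and the small proline-rich proteins (Sprr) are among the first layers of the envelope, loricrin (Lor) is its main reinforcing protein, and the late cornified envelope (Lce) proteins are added late. Filaggrin (Flg), Flg2, hornerin (Hrnr) and repetin (Rptn) are large proteins with an S100-like start. Crct1 encodes a small cysteine-rich protein and lies next to Lce1m.

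The samples were skin of C57BL/6 mice labelled as post natal 7 weeks, from a study of hair growth under the natural product Shi-Bi-Man. There was 1 droplet single-cell library for each of the agents control, Shi-Bi-Man and metformin, and the expression of the Shi-Bi-Man library was not analysed here. The labels name no dose, route or duration of the agents and do not say how many animals a library holds. Their extraction text mentions cynomolgus monkey, whereas the gene identifiers are those of mouse. With 1 library per agent there is no replicate. A difference between agents cannot be told apart from a difference between these 2 skin samples, and no test between them was made. Intervals are 95% and cover counting error only.

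The control library had 12108 barcodes and 71345558 unique molecular identifiers (UMIs, each standing for 1 captured RNA molecule). The metformin library had 12092 barcodes and 92341365 UMIs. After filters on depth and mitochondrial share and removal of doublets, 10989 control cells (median 4158 UMIs) and 10777 metformin cells (median 6620 UMIs) were kept. Among them, 34 barcode sequences occurred in both libraries, and these barcodes held 9 control and 44 metformin UMIs of the envelope genes.

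The 250 bases upstream of the RefSeq start are printed for 4 genes, because these genes stand for the early and the late part of the order described further on. Sprr1a and Sprr1b had most of their epidermal UMIs in spinous and granular cells, and Lor and Lce1m almost all of them in granular cells. Capitals mark TGANTCA, the site of AP-1 factors, on either strand, and TATAAA, the TATA box. The sequences are from RefSeq, build GRCm38.p6, and run 5′ to 3′ on the minus strand, which carries each of these genes. They lie at chr3:92485882-92486131 (Sprr1a), chr3:92438780-92439029 (Sprr1b), chr3:92083143-92083392 (Lor) and chr3:93019062-93019311 (Lce1m).
Sprr1a: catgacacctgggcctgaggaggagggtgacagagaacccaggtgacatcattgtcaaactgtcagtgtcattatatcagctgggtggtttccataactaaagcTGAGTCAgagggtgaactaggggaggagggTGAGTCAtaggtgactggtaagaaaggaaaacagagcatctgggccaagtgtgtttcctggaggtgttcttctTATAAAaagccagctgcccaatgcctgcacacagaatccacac
Sprr1b: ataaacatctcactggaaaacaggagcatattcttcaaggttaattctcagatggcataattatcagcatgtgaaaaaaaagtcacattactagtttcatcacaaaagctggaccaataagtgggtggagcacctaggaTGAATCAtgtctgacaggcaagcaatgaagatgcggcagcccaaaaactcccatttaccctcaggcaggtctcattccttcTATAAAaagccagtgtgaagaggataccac
Lor: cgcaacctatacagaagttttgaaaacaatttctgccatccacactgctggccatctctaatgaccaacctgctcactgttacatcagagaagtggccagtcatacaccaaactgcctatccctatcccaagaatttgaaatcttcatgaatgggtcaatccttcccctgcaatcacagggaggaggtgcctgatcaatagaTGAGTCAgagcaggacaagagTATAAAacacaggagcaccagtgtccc
Lce1m: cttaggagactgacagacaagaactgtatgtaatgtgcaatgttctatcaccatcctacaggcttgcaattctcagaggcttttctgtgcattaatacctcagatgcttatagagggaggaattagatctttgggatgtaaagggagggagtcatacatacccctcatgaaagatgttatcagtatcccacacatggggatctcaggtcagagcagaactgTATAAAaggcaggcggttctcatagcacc
Sprr1a had 2 AP-1 matches, Sprr1b and Lor had 1 each, at positions -111 and -48 from the start, and Lce1m had none in this window. All 4 had a TATA match, at -43, -30, -27 and -29. The upstream bases of Sprr1a and Sprr1b were 55.4% identical.

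An upstream sequence was found for 40 of the 43 genes. TGANTCA was present in 14 of the 40 (35%), beside 6.87% of all 27025 promoters of the same length. TATAAA was present in 19 (47.5%), beside 13.0% of all promoters. ATGCAAAT, an octamer bound by POU factors, was present in 7 (17.5%), beside 1.61%. GGGTG, a short match for KLF factors, was present in 16 (40%), beside 51.3%. AACCGGTT (GRHL factors) and TTGCGCAA (C/EBP factors) were present in 0 of the 40, beside 0.122% and 0.170% of all promoters. Both strands were searched and each motif was counted apart from the others. Many of these genes are near copies of each other, so their promoters are not independent of one another.

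The envelope genes were among the most unevenly held in the data. They had 122839 UMIs in the control cells (0.184% of all UMIs) and 30008 in the metformin cells (0.0363%). In the control library 50% of these UMIs were held by 18 cells, which were 0.164% of the cells. In the metformin library 50% were held by 24 cells, 0.223% of the cells. The first 90% needed 461 control and 525 metformin cells. The single richest cell held 7391 UMIs (6.02%) in control and 6501 UMIs (21.7%) in metformin.

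Most of the count came from few genes. Lor, Sprr1a and Sprr1b together had 65.3% of the UMIs of the group over both libraries. The 21 genes with at least 100 UMIs over both libraries had 99.6%, and the other 22 had the rest. In all, 41 of the 43 genes had a UMI in control and 33 in metformin, and Lce3a and Lce3b had none in either. Counts are from the 3′ end of each RNA and are not scaled by length, so they are compared between cells and libraries for 1 gene at a time. Some are uncertain, because the genes share 3′ sequence. Of the 90-base windows in the last 400 bases, 100% of those of Sprr2a1 and Sprr2a2, 50.2% of Sprr2a3, 36.7% of Lce3c and 26.0% of Lce3d also occurred in another gene, against 10.7% for Lce1a1 and 0 for Lor, Sprr1a, Sprr1b, Ivl, Crct1, Flg and Lce1m.

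The families differed in how many cells held them. The 21 Lce genes together had 15356 control UMIs in 117 cells, and 3 cells held 50% and 6 cells 90% of them. In metformin they had 3142 UMIs in 51 cells, of which 1 cell held 87.0%. The 14 Lce1 genes in metformin had 2727 UMIs, and 1 cell held 99.0% of them. Lor, with 36396 control UMIs in 661 cells, needed 8 cells for 50%, and with 4664 metformin UMIs in 413 cells it needed 1 cell. The large proteins Flg, Flg2, Hrnr and Rptn needed 16 control cells and 5 metformin cells. The UMIs of Sprr1a and Sprr1b were spread far wider, over 1787 control and 1262 metformin cells, and 148 and 92 cells held 50% of them. Ivl was spread alike, with 108 control and 61 metformin cells for 50% of its 3845 and 1368 UMIs.

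Against all genes with at least 100 UMIs, this holding was extreme. Over 12541 such genes in control the median number of cells that held 50% was 373, and over 12928 genes in metformin it was 428. The 20 envelope genes that passed this minimum in control had a median of 4 cells, and the 14 in metformin 2.5 cells. A single cell held at least 10% of the UMIs of 13 of the 20 genes in control, where 0.742% of all genes did so, and of 10 of the 14 in metformin, where 0.719% did. The limit of 10% was chosen after the values were seen. Thinned to 1500 UMIs per cell, the group needed 31 control and 54 metformin cells for 50%. Without the richest cell, 21 control and 67 metformin cells were needed, so the metformin value rests on that cell.

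**Figure D1:**
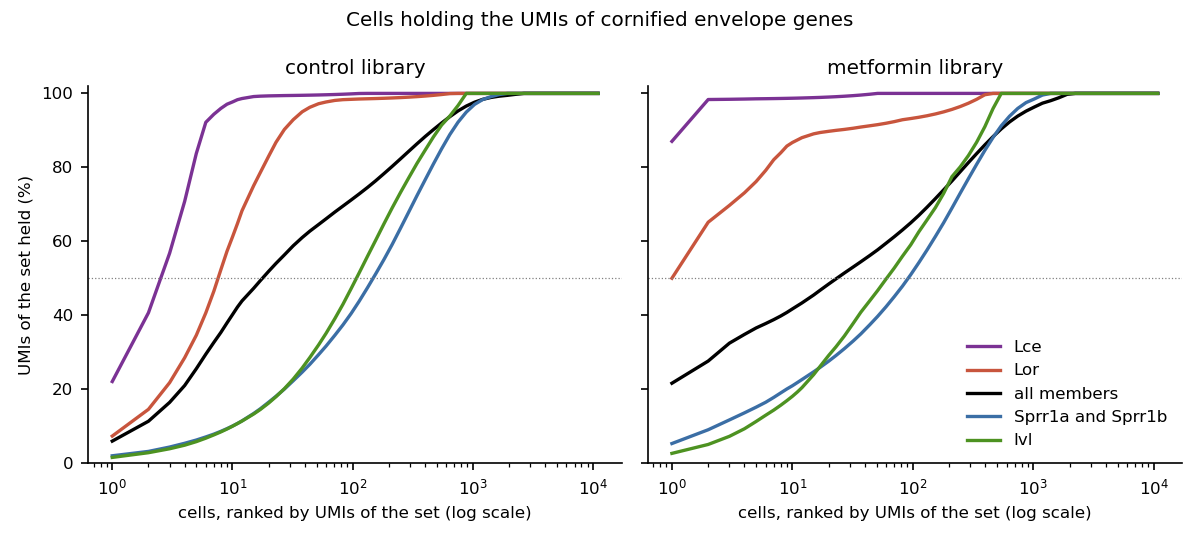
Cumulative share of the UMIs (y, percent) against the number of cells ranked by their UMIs of the set (x, log scale), in the control library (left) and the metformin library (right). The Lce and Lor curves rise within the first cells, 3 control cells and 1 metformin cell for 50% of the Lce UMIs, whereas Sprr1a with Sprr1b and Ivl need 148 and 108 control cells.

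The control cells richest in Lce UMIs shared high Lor and Crct1 but were not alike in all envelope genes. In control 6 cells had more than 1000 Lce UMIs each, 14157 in all or 92.2% of the Lce UMIs of the library. These 6 cells also held 14420 Lor UMIs, 39.6% of all Lor UMIs. Envelope genes made up 25.8 to 42.5% of the UMIs of each. One of them had 1293 UMIs of Lce1m but 0 of Lce1a1, Lce1b, Lce1a2 and Lce1c. The richest had 17398 UMIs over 1401 genes, among them 2686 of Lor, 1624 of Lce1m, 822 of Crct1, 503 of Lce1a1, 488 of Lce1b and 318 of Lce1a2. Only a few transcripts of the layers below were looked at in these 6 cells, and they were mostly absent or low. Krt10 had 0 to 11 UMIs, Sprr1b had 0 in each of the 6 cells, and Sprr1a had 207 in 1 of them and at most 4 in the others.

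In metformin 1 cell had more than 1000 Lce UMIs. It had 2735 Lce UMIs, 2334 of Lor, 2333 of Lce1m, 1150 of Crct1 and 2 of Krt10 among 25939 UMIs over 4205 genes. It differed from the 6 control cells in its 29 UMIs of Krt5 and 15 of Krt14, the basal keratins, of which the control cells had 0 and at most 1. It also had more genes detected than any of them (1346 to 2601). Whether it was 1 cell was not tested, and it was not called a doublet.

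Lce3c, a member of the Lce3 branch, was only in part in these cells. The 6 control cells held 71 of the 277 control UMIs of Lce3c, 48 of them in the cell richest in Lce, and the metformin cell held 20 of 241. The control cell with the most, 162 UMIs, had 0 of Lce1m, 160 of Sprr1b, 139 of Sprr1a, 46 of Rptn, 510 of Flg and 168 of Krt10. Another control cell, with 34 Lce3c UMIs, had 231 of Sprr1b, 54 of Rptn and 8 of Lce1m. In metformin 1 spinous-like cell had 215 of the 241 Lce3c UMIs and 118 of the 120 of Lce3d. It had 451 UMIs of Sprr1a, 414 of Sprr1b and 0 of Lor, Flg, Hrnr and Lce1m. So few cells describe these libraries and no more.

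Overlap was counted among control cells with at least 5 UMIs of a gene. These sets of cells differed much in size, and a small set can cover only a small part of a large one. The unequal overlap is thus in part set by their sizes. Of 14 such Lce1m cells, 14 had at least 5 UMIs of Lor, 14 of Crct1, 14 of Flg, 14 of Hrnr and 13 of Flg2, but 4 of Ivl, 4 of Sprr1a and 2 of Sprr1b. Of 81 Lor cells, 14 reached 5 UMIs of Lce1m, 73 of Hrnr, 71 of Flg, 55 of Ivl and 40 of Sprr1a. Of 780 Sprr1a cells, 343 reached 5 UMIs of Sprr1b, 133 of Ivl, 40 of Lor and 4 of Lce1m. A cell with fewer UMIs reaches 5 less easily, and this was not corrected for.

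**Figure D2:**
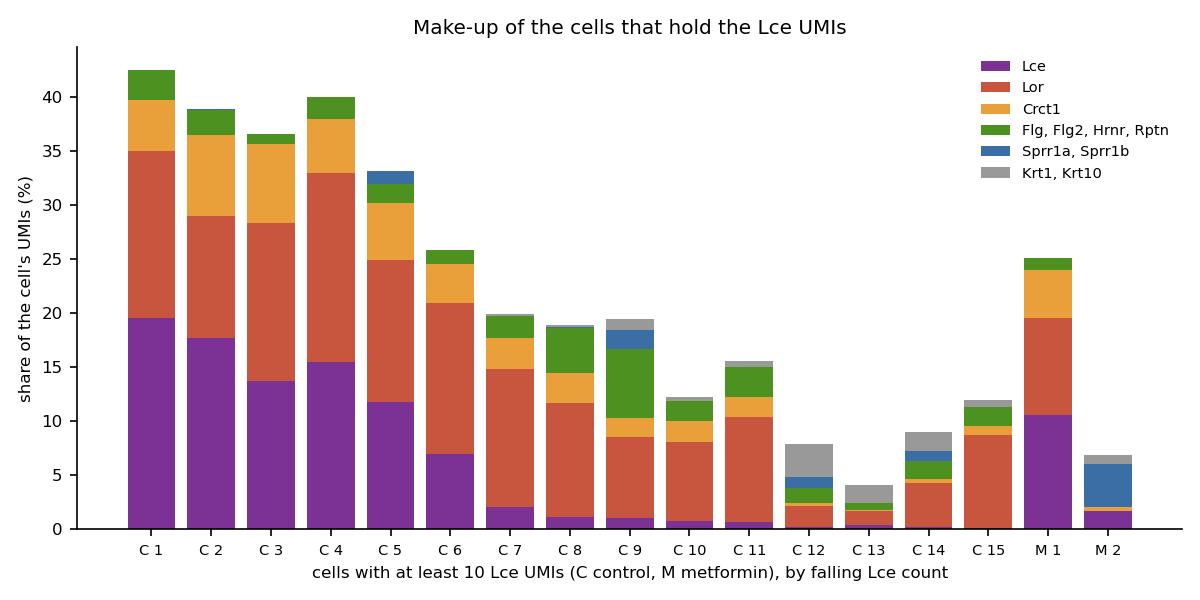
Make-up of the 15 control (C) and 2 metformin (M) cells with at least 10 Lce UMIs, ordered by falling Lce count: stacked share of the UMIs of each cell (y, percent) taken by Lce, Lor, Crct1, the large proteins, Sprr1a with Sprr1b, and Krt1 with Krt10. In the first 6 control cells and the first metformin cell the coloured part is mostly Lce, Lor and Crct1 and ends below 50%, with Krt10 at 11 UMIs or fewer, and the second metformin cell has Sprr1a and Sprr1b with no Lor.

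Levels by cell class followed the layers. Cells were clustered without the 43 genes, and classes were named from other markers. The granular-like class had all 12 of its marker genes detected in both libraries, at a summed level of 12692 counts per 1000000 counts of the class (CPM) in control and 11335 in metformin, against 1569.6 and 1098 in spinous-like and 69.4 and 91.6 in basal-like cells. Tgm3, 1 of the 12, was not granular in these data, with a mean position of 47.7 on the differentiation axis described further on. It held 172 control cells (1.57%) and 28 metformin cells (0.260%). Basal-like cells had a summed level of the envelope genes of 52.3 CPM in control and 61.7 in metformin, spinous-like cells 1169.7 and 770.0 CPM, and granular-like cells 35729.7 and 34789 CPM. Upper hair follicle-like cells, from the funnel through which the hair leaves the skin, had 2668 and 2183 CPM. Hair follicle stem or outer root sheath-like cells had 97.8 and 90.6 CPM, and fibroblast-like cells 26.8 and 6.68 CPM. Granular-like cells held 73.4% of the UMIs of the group in control and 40.9% in metformin.

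Most genes were granular. In control the granular-like cells held 98.2% of the UMIs of Lor, 98.6% of Hrnr, 98.2% of Flg2, 96.2% of Crct1, 95.3% of Flg and 99.6% of Lce1m. In metformin they held 84.6% of Lor, 83.6% of Hrnr, 87.6% of Flg2, 84.1% of Crct1, 83.7% of Flg and 99.4% of Lce1m. The level of Lor was 14157.5 CPM in control and 11184.5 in metformin granular-like cells, against 10.2 and 20.5 CPM in spinous-like cells. Lor is a structural protein rich in glycine. Ivl, a protein rich in glutamine to which others are cross-linked, was split, with 52.1% of its control UMIs in granular-like and 37.1% in spinous-like cells, and 28.4% and 42.7% in metformin.

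The Sprr1 pair was divided unequally over the classes. Sprr1a had 2428 CPM in control and 2032 in metformin upper hair follicle-like cells, and 1937 and 2434 CPM in granular-like cells. Sprr1b had 58.7 and 31.9 CPM in the upper hair follicle and 3513 and 2437 CPM in granular-like cells. Sprr1a made up 97.6% of the UMIs of both in the control upper hair follicle (exact binomial interval 97.3 to 98.0%), 84.2% in basal-like (79.7 to 88.1%), 43.9% in spinous-like (43.2 to 44.6%) and 35.5% in granular-like cells (34.7 to 36.3%). In metformin these shares were 98.5% (98.1 to 98.8%), 91.3% (89.3 to 93.1%), 53.7% (52.6 to 54.8%) and 49.97% (47.6 to 52.4%). Basal-like cells had few UMIs of either, 267 of Sprr1a in 96 of 1440 control cells and 802 in 191 of 2413 metformin cells. Thinned to 1500 UMIs, Sprr1a was in 1.74% and 2.66% of basal-like cells, above the 0.409% and 0.446% of fibroblast-like cells. T cell-like cells had 1.47% and 0.628%. In control the intervals of basal-like (1.13 to 2.56%) and T cell-like cells (0.676 to 2.78%) overlapped, so the basal-like value was not clearly above this background. The metformin share was the higher in all 6 keratinocyte-like classes compared, and the counting intervals overlapped in 1 of them, the hair follicle stem or outer root sheath-like class (99.2% and 99.5%). In the class with markers of hair matrix, hair shaft and inner root sheath, control had 32 cells. Its share of 60.9% came from 14 Sprr1a UMIs in 5 cells and 9 Sprr1b UMIs in 1 cell. The intervals take no account of UMIs that lie in the same cell. Both genes have upstream sequences with AP-1 and TATA matches, printed above.

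Sprr2a3 was the exception among the named genes. It had 11.4 CPM in control and 10.2 in metformin basal-like cells, 4.60 and 4.44 CPM in spinous-like cells, and 0 UMIs in granular-like cells of either library. Basal-like cells held 60.9% of its 258 control and 74.4% of its 301 metformin UMIs. Among the genes with at least 100 UMIs, its 3′ windows were those most shared with other genes, here Sprr2a1 and Sprr2a2. The genes of this family with fewer UMIs followed no single pattern. Sprr2d had 68 UMIs in 18 control cells and 22 in 6 metformin cells, Sprr2f had 9 in 5 and 42 in 11 cells, and Sprr2i had 14 in 5 and 83 in 2 cells. Sprr4, outside the family, had 33 UMIs in 22 control and 26 in 10 metformin cells, whereas Sprr3, a gene of inner epithelia such as the oesophagus, had 2 UMIs in 1 control cell. Sprr2h, with more UMIs, had 84.8 and 104.8 CPM in granular-like cells and 0.0729 and 0.183 CPM in basal-like cells.

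**Figure D3:**
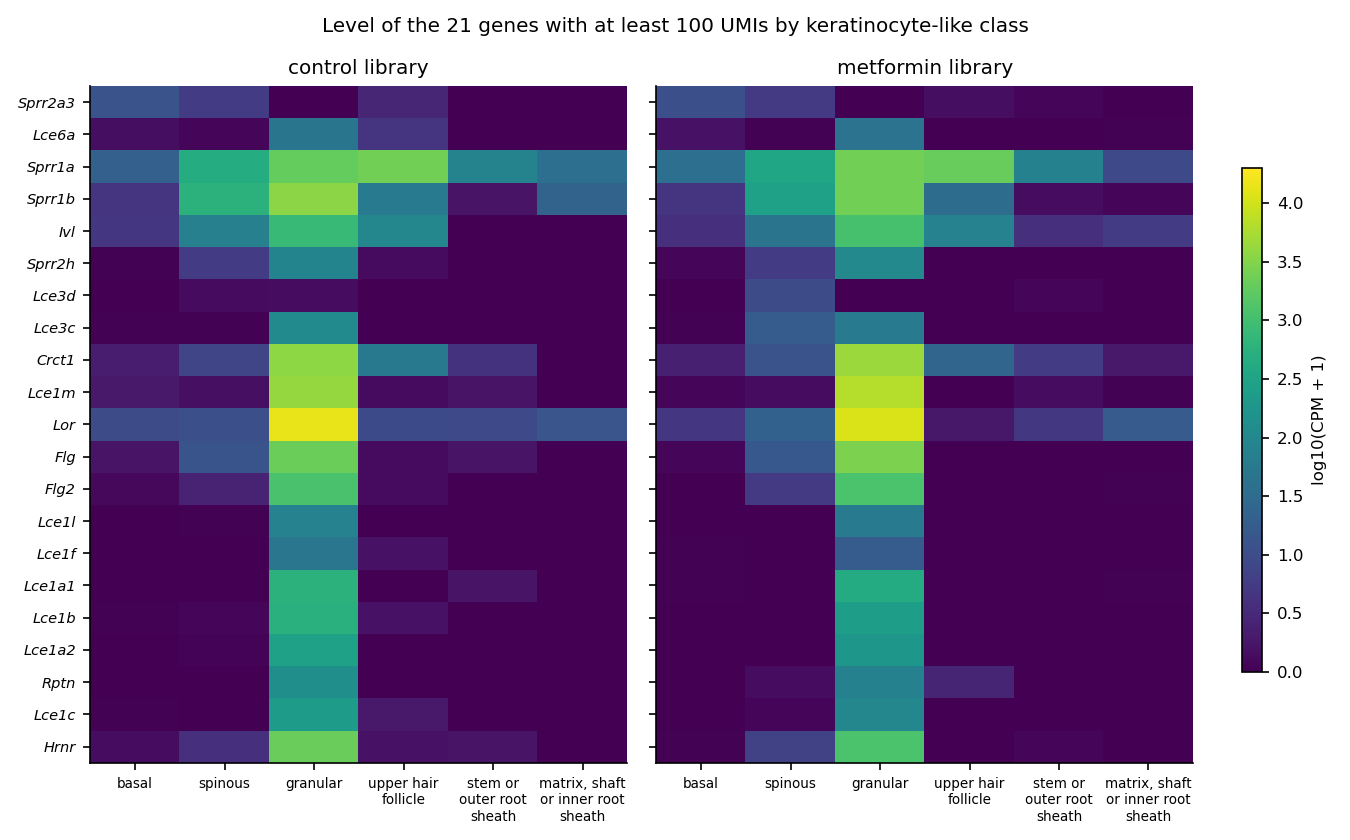
Level of the 21 genes with at least 100 UMIs (rows, in their order along the differentiation axis) in 6 keratinocyte-like classes (columns) of the control (left) and metformin (right) library, as log10(CPM + 1). The granular column is the brightest for most rows. Sprr1a is as bright in the upper hair follicle, 2428 and 2032 CPM, and Sprr2a3 is highest in basal cells, 11.4 and 10.2 CPM.

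Detection of an envelope gene was common and mostly of few UMIs. At least 1 UMI of the group was present in 2076 of 4155 control keratinocyte-like cells (49.96%, interval 48.4 to 51.5%) and 1820 of 6491 metformin cells (28.0%, 26.9 to 29.1%), at median depths of 9378 and 8471 UMIs. Fibroblast-like cells, which should lack these genes, had it in 5.84% of 4041 control and 2.43% of 1525 metformin cells at median depths of 2678 and 3195 UMIs. After each cell was thinned to 1500 UMIs, 30.03% of control and 13.1% of metformin keratinocyte-like cells had one, beside 2.66% and 1.12% of fibroblast-like cells. T cell-like cells had 5.73% and 1.26% after thinning. For the Lce genes the thinned share was 0.895% of control keratinocyte-like cells, against 0.117% of fibroblast-like and 0.655% of T cell-like cells. The granular-like cells had 11.1% (interval 6.82 to 16.8%), or 19 of the 37 keratinocyte-like cells with a thinned Lce UMI, and basal-like and spinous-like cells had 0.209% and 0.421%, no higher than the T cell-like cells. In metformin it was 0.109% of keratinocyte-like cells and 0 of the fibroblast-like and T cell-like cells. Of 117 control cells with an Lce UMI, 91 had exactly 1.

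The order of expression was read along a differentiation axis over 7022 basal-like, spinous-like and granular-like cells, 3279 of control and 3743 of metformin. The axis is the mean score of spinous and granular markers minus that of basal markers, with none of the 43 genes in it. A cell has a position from 0 to 100 by its rank, and a gene has the mean position of the cells weighted by its counts per 10000. Among the 21 genes with at least 100 UMIs, Sprr2a3 stood apart at 45.9. Sprr1a followed at 84.2, Sprr1b at 92.1, Ivl at 92.5 and Sprr2h at 92.5. Crct1 and Lce1m were at 97.7, Lor at 98.1, Flg at 98.3, Flg2 at 98.4 and Hrnr at 98.8. Lce1a1, Lce1b, Lce1a2, Lce1c, Lce1f and Lce1l lay between 98.4 and 98.8. Lce6a, at 80.5 over 155 UMIs, was at 88.7 in control and 43.7 in metformin.

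On this axis Sprr1a came before Sprr1b and Ivl in both libraries. Sprr1a was at 82.7 in control and 82.5 in metformin, each library ranked alone, Sprr1b at 89.2 and 93.3, and Ivl at 90.5 and 93.0. In 20 bins of equal cell number, Sprr1a first reached 10% of its highest bin in bin 15, Sprr2h in bin 16, Sprr1b in bin 17, Ivl in bin 18, Lce1m and Rptn in bin 19, and Crct1, Lor, Flg, Flg2 and Hrnr in bin 20. Without the richest cell of each library for the gene, Lce1m moved to bin 20 and Sprr2h to bin 17. In bin 19, 2333 of the Lce1m UMIs were in 1 metformin cell and the other 8 in 1 control cell. The last bin held 34.9% of Sprr1a, 50.8% of Sprr1b, 64.7% of Ivl, 93.7% of Lor and 97.2% of Hrnr. Of the 210 pairs of genes, 89.5% of those measured had the order of both libraries together in control alone and 78.4% in metformin alone. Each library is part of the order it was compared with, which raises these shares. Directly between the libraries, the rank correlation (Spearman) of the positions of 19 genes was 0.51. In metformin alone Lor was at 95.7 and Lce1m at 95.1, near Sprr2h at 94.7, and Hrnr was at 98.8. Sprr1b and Ivl differed by less between them than each moved between libraries.

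The late genes could not be ordered on this axis. Their positions spanned 97.7 to 98.8, and the Lce1m value rested on the equivalent of 7.79 equally weighted cells, against 366 for Sprr1a. An axis from Krt5, Krt14, Krt1 and Krt10 alone kept 46.2% of the 210 pairs in order. These pairs include the early genes, so the order as a whole depended on the axis used. Which of the pairs changed is not given here. Within the last 5% of the axis, in windows of 1%, Sprr1a went through 9.18, 13.9, 17.8, 18.5 and 22.0 counts per 10000 and Ivl through 2.35, 4.27, 5.94, 8.12 and 11.4. Lor went through 3.52, 0.676, 6.78, 94.3 and 260.4, Hrnr through 0.127, 1.02, 2.11, 10.3 and 41.1, and Lce1m through 0.0191, 0.0141, 0, 53.5 and 34.6. Lor, Hrnr and Lce1m thus had most of their level in the last windows, over which Sprr1a and Ivl changed far less.

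**Figure D4:**
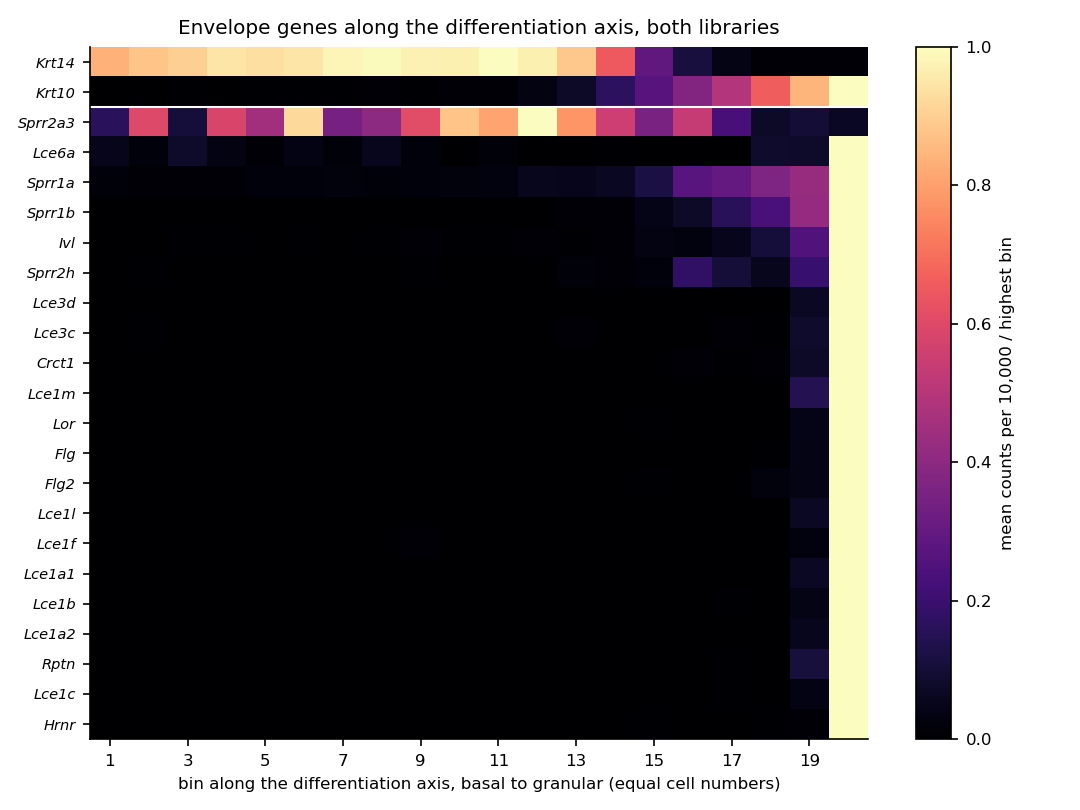
Mean counts per 10000 of Krt14, Krt10 and the 21 envelope genes (rows) in 20 bins of equal cell number along the differentiation axis (columns, basal to granular, both libraries), each row divided by its highest bin. Sprr1a is visible from bin 15 and Sprr1b from bin 17, and most rows below are dark until bin 20, whereas Sprr2a3 is brightest in bin 12.

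The granular-like class was also divided by Krt10, from cells with much to cells with little. This view was added after the cells rich in Lce had been seen to lack Krt10. Those cells therefore had to fall in the last group, so high Lce1m, Lor and Crct1 there is not a separate finding. In 4 groups of 43 control cells by falling Krt10, Lor was at 2118, 1089.5, 4346 and 56036 CPM, Crct1 at 247, 118, 526 and 15959 CPM, and Lce1m at 0, 1.48, 11.9 and 18812 CPM. Flg was at 1573, 775, 1479 and 5215 CPM and Hrnr at 1694, 1251, 975 and 4774 CPM. Sprr1b was at 2359.9, 3397, 4349 and 3954 CPM, and Ivl at 927, 831, 842 and 534 CPM. Sprr1a was at 1091, 1205, 2077 and 3637 CPM. So Lor, Crct1 and Lce1m were mostly in the cells with the least Krt10, whereas Ivl was lower there than in the other 3 groups. Over those 3 groups Lor and Crct1 did not rise steadily. Sprr1a, although early on the axis, was also highest in the cells with the least Krt10. Flg was detected in 41, 37, 35 and 40 of 43 cells and Lce1m in 0, 1, 1 and 13. In metformin, with 2 groups of 14 cells, Lor was at 2507 and 19851 CPM, and Lce1m at 0 and 13213.5 CPM, all from 1 cell. Sprr1a was at 652 and 4214 CPM there, Sprr1b at 1106 and 3766 CPM, and Ivl at 1197 and 1002 CPM. Hrnr was lower in the metformin group with less Krt10, at 1611 and 782 CPM, unlike in control. CPM shares sum to a whole, and envelope genes filled up to 42.5% of the counts of a cell, which lowers the CPM of every other gene in it.

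The metformin library had less envelope RNA over its keratinocyte-like cells. The summed level was 2874 CPM for control against 478 for metformin, a ratio of 0.166 (exact conditional interval 0.164 to 0.168), so control was 6.02-fold higher. Of 31 genes with at least 20 UMIs in both libraries together, 23 were at least 2-fold lower in metformin, where 5.36% of 14161 genes were. The 3 that were at least 2-fold higher, where 13.2% of all genes were, are Lce3d, Sprr2i and Sprr2f. In Lce3d 118 of 119 and in Sprr2i 82 of 83 metformin UMIs were in 1 cell. The median log2 ratio of the 31 genes was -2.69, and that of all genes 0.18. The 12 genes without 20 UMIs were not read.

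Single genes showed the size of this. Lor was at 852 CPM in control and 74.3 in metformin (ratio 0.0872, 0.0845 to 0.0899), Hrnr at 124 and 8.13 (0.0656, 0.0598 to 0.0719), and Flg at 132 and 18.9 (0.143, 0.134 to 0.152). Sprr1a was at 512 and 179.6 CPM (0.350, 0.342 to 0.359), Sprr1b at 480.1 and 76.7 (0.160, 0.155 to 0.165), and Ivl at 89.5 and 21.3 (0.238, 0.224 to 0.254). Lce1m was at 244 and 37.8 CPM (0.155, 0.148 to 0.162), but with the richest cell of each library left out its ratio was 0.000915. Sprr2a3 was at 5.92 and 4.68 CPM (0.790, 0.665 to 0.939).

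The make-up of the keratinocyte-like cells differed between the libraries. They were 37.8% of the control and 60.2% of the metformin cells, and a class with markers of hair matrix, hair shaft and inner root sheath held 1513 of the metformin but 32 of the control cells. Granular-like cells were 172 of 4155 and 28 of 6491. Within suprabasal-like cells, the spinous-like and granular-like cells together, the envelope genes had 5202 CPM over 1839 control cells and 1666 CPM over 1330 metformin cells, a ratio of 0.320 (0.316 to 0.325). Of 29 genes, 19 were at least 2-fold lower, where 3.85% of 11616 genes were, and 3 at least 2-fold higher, where 2.69% were. The median log2 ratio of the 29 was -1.76, and that of all genes 0.02. The 3 higher genes were Lce3d, Sprr2i and Lce3f, each with all or all but 1 of its metformin UMIs in 1 cell.

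Within clusters the ratios were closer to 1 when every cell was counted, but those of the upper 2 clusters rested on 1 metformin cell each. The summed level was 219 and 153 CPM in the first spinous-like cluster (ratio 0.701, 0.646 to 0.760), 938 and 789.7 CPM in the second (0.842, 0.805 to 0.880) and 2423 and 2513 CPM in the third (1.04, 1.01 to 1.07). In the granular-like cluster it was 35729.7 and 34789 CPM (0.974, 0.955 to 0.992). With the richest cell of each library taken out of the cluster, the 4 ratios were 0.725, 0.794, 0.815 and 0.535. One metformin cell held 1450 of the 6172 metformin UMIs of the third spinous-like cluster, and another 6501 of the 12277 of the granular-like cluster. These 4 clusters held 33.6, 33.1, 23.9 and 9.35% of the control and 58.0, 25.0, 14.9 and 2.11% of the metformin suprabasal-like cells. The 2 clusters with the highest levels thus held a smaller share of the metformin cells. In the last bin of the differentiation axis, with 274 control and 77 metformin cells, the summed level was 23793.7 and 9397 CPM (0.395, 0.386 to 0.404). In the bin before it the ratio was 2.50, with 6501 of 9115 metformin UMIs in the 1 cell rich in Lce. Fewer granular-like cells in the skin and fewer recovered from it cannot be told apart here.

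The granular-like level was not stable. Without the 1 metformin cell rich in Lce it was 17666 CPM, a ratio of 0.494 (0.481 to 0.508). With other cell filters or clusterings the class took in 125 to 607 control and 26 to 229 metformin cells, and its metformin level ran from 4871 to 35328 CPM. With doublets kept, for example, 600 control and 217 metformin cells were granular-like, at 12591 and 6749.6 CPM. Of 22 genes within the granular-like cells 4 were at least 2-fold lower, where 6.97% of 6983 genes were, and 0 at least 2-fold higher, where 4.98% were. The 4 are Sprr2d, Lce1b, Lce1c and Lce1f. In the whole metformin library 1 cell held all 91 UMIs of Lce1b and 33 of the 37 of Lce1c, and Lce1f had 8 UMIs. In control 4 cells held 90% of the UMIs of Lce1b, and 4 cells 90% of those of Lce1c. Basal markers, 8 of 8 detected, summed to 253 CPM in the control and 1071 CPM in the metformin granular-like cells, and fibroblast markers to 248 and 28.3 CPM with 0 and 2 of 6 at 0. Their part in the result was not tested.

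Inside the granular-like cells the genes split. Hrnr was at 2054 and 1196 CPM (0.582, 0.526 to 0.643), and at 0.526 without the richest cell of each library. Lor was at 14157.5 and 11184.5 CPM (0.790, 0.764 to 0.816) and at 0.349 without the richest cells. Sprr1b was at 3513 and 2437 CPM (0.694, 0.646 to 0.744), and at 0.345 without the richest cells, 1 of which held 460 of its 860 metformin UMIs. Ivl was at 793 and 1099.5 CPM (1.39, 1.24 to 1.55), and at 1.29 without the richest cells. Sprr1a was at 1937 and 2434 CPM (1.26, 1.17 to 1.35), and at 0.880 without them. Crct1, Lce1m and Flg were above 1 with the richest cells and below 1 without them.

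Sprr1b was lower in metformin in each of the 4 suprabasal-like clusters, at ratios of 0.628, 0.714, 0.749 and 0.694, and at 0.597, 0.629, 0.643 and 0.365 without the richest cell of each library. Sprr1a had 0.781, 0.981, 1.03 and 1.26 in the same clusters, and 0.804, 0.967, 0.847 and 0.913 without those cells. In the third spinous-like cluster Hrnr was at 8.24 and 31.8 CPM (3.86, 2.66 to 5.63) and Flg at 37.8 and 75.3 CPM (1.99, 1.63 to 2.43). Without the richest cells these ratios were 3.34 and 1.89, and 1 control and 6 metformin cells had at least 5 UMIs of Hrnr. Lor was at 11.9 and 90.8 CPM there (7.61, 5.80 to 10.1), but 212 of its 223 metformin UMIs were in 1 cell, and without the richest cells the ratio was 0.476 (0.225 to 0.916). Crct1 had 86 of 136 metformin UMIs in 1 cell, and its ratio went from 4.12 to 1.74.

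**Figure D5:**
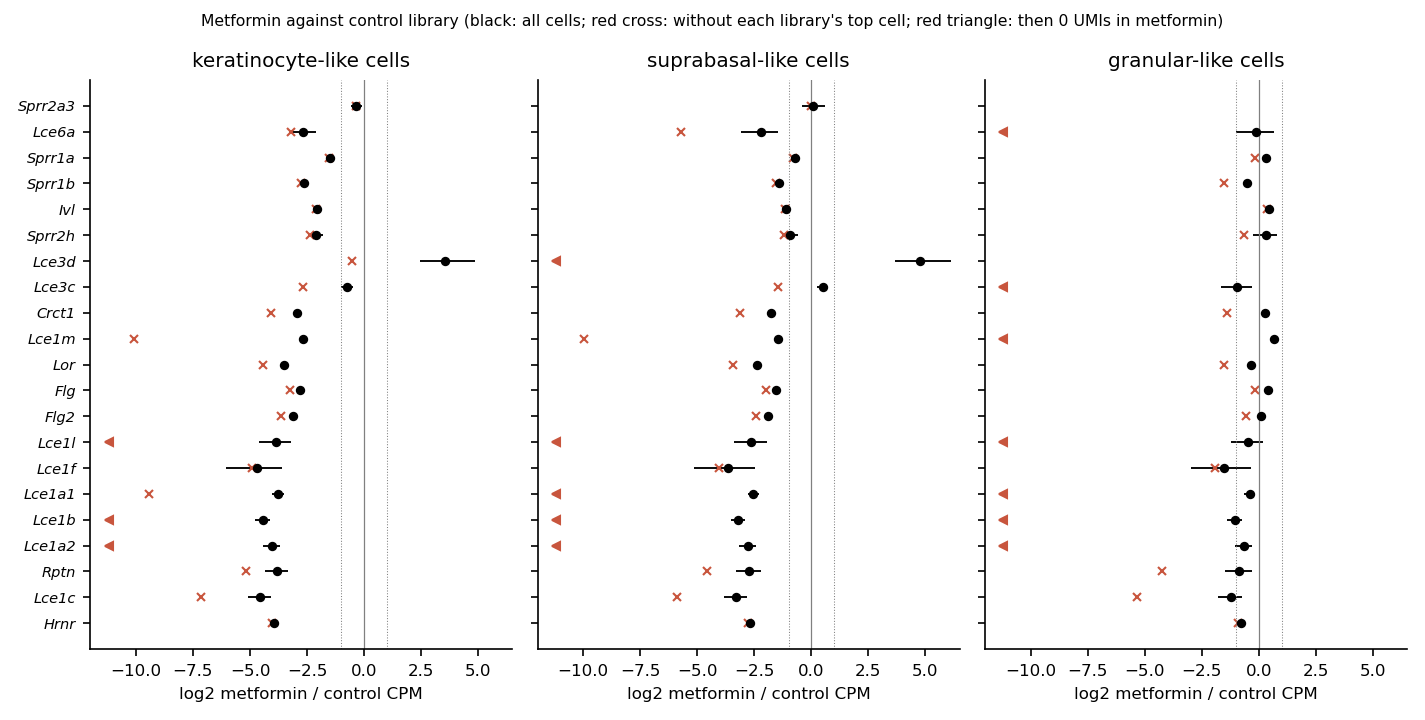
Log2 ratio of metformin over control CPM (x) of the 21 genes (rows) in keratinocyte-like (left), suprabasal-like (middle) and granular-like (right) cells: black points with 95% counting intervals, red crosses with the richest cell of each library for that gene left out, and red triangles where no metformin UMI is then left. Most points lie left of -1 in the left panel, near or left of -1 in the middle and around 0 on the right, where the crosses of the Lce1 genes move far to the left.

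Other genes of cornification, taken from a list of 40, were also compared. In keratinocyte-like cells, where 23 of 31 envelope genes and 5.36% of all genes were at least 2-fold lower in metformin, 7 of 9 scaffold and other envelope proteins, 5 of 11 cross-linking and processing enzymes and 4 of 12 regulators were lower as well. At least 2-fold higher were 2 of the enzymes and 0 of the scaffold proteins and regulators, beside 13.2% of all genes. Of 7 calcium-binding neighbours of the complex, 0 were lower and 1 was higher. In suprabasal-like cells fewer scaffold proteins, enzymes and regulators were lower, beside 19 of 29 envelope genes. Of 11 cross-linking and processing enzymes, 9 had enough UMIs in suprabasal-like cells and 2 were at least 2-fold lower in metformin: Tgm1, a transglutaminase of the envelope (60.05 and 21.6 CPM, 0.359), and Asprv1, a protease that trims filaggrin (1038 and 374 CPM, 0.361). Casp14, another enzyme of filaggrin breakdown, was at 86.1 and 61.7 CPM (0.716). Of 10 scaffold and other envelope proteins, 9 were measured and 2 were lower, Cnfn (335.5 and 82.4 CPM, 0.246) and Kprp (23.0 and 5.82 CPM, 0.253). The scaffold proteins Evpl, Ppl and Dsp were at ratios of 0.827, 0.762 and 0.803. Of 12 regulators, 1 was lower, the repressor Prdm1 (21.1 and 9.40 CPM, 0.445). Klf4, Grhl3 and Zfp750, factors of late differentiation, were at 0.821, 0.705 and 0.823. The share of all genes at least 2-fold lower was 3.85%.

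On the axis of differentiation, Cnfn at 97.05 and Kprp at 97.1 stood with the late envelope genes, and Tgm1 at 94.5 and Prdm1 at 88.9 between Sprr1a and Crct1. Evpl at 73.6, Ppl at 64.9 and Dsp at 63.1 came before Sprr1a. The calcium-binding S100a10 at 38.9 and S100a6 at 33.5, whose genes lie near the complex, were basal. Asprv1, Casp14 and Tgm3 are among the granular markers that define the axis, so their positions are not independent of it. Tgm3 was nonetheless at 47.7, with 57.7% of its level in bins 1 to 10.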

How the data were processed

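The deposited values are UMI counts of genes in barcodes, not normalized, which the authors made with Cell Ranger 4.0.0 per the file headers. The submitters' processing notes name mouse build GRCm38. Further settings are not given in the sources here. Cells needed 300 genes, 800 UMIs and a mitochondrial share of 8% or less, with no upper limit on genes, and doublets called by Scrublet in scanpy 1.11.5 (390 control, 681 metformin) were removed. Counts per 10000 of 2000 variable genes, without the 43 envelope genes, gave 30 principal components and Leiden clusters at resolution 1 (leidenalg 0.10.2, 20 neighbours). Clusters were named from fixed markers of other genes, at least 3 of them detected. CPM are summed counts of a class per 1000000. Ratios have exact conditional binomial intervals and shares of cells have exact (Clopper-Pearson) intervals. A gene was called at a 2-fold difference with at least 20 UMIs in both libraries together. Levels and ratios are given for envelope genes with at least 100 UMIs, and UMIs and cells for a few genes below that, picked after their values were seen. For a gene, leaving out the richest cells removed their UMIs of that gene in the whole class and the whole cell within a cluster. A count of 0 was set to 3 UMIs for medians of ratios. Scripts were tested on simulated data. GENCODE M21 gave the coordinates. The gene group, the lists and the markers were chosen with earlier results of these data known.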

Additional observations from a re-analysis of the deposited data

How the results depend on the processing

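No paired analysis was possible because each agent has 1 library. Of the main results under the alternatives, 55 stayed within a set limit of the value reported and 45 moved beyond it. Of the values of single genes, 344 stayed within it, 254 moved beyond it and 8 reversed. The limit was the counting interval for ratios, levels and shares of cells, and the same bin for first bins. For counts and the share of pairs in order it was a set factor. For axis positions it was the gap between the 2 libraries for that gene, so genes whose libraries differed most stayed within it most easily. The cause of each change was not tested. Over all alternatives, whether or not they moved, log2 ratios in keratinocyte-like cells or parts of them ran from -0.52 to 0.20 for Sprr2a3. For Lor they ran from -4.94 to -0.34, and the latter is the value of granular-like cells alone. In suprabasal-like cells or parts of them they ran from -5.29 to 1.23 for Lce3c. With at most 3000 genes per cell, 8 control and 64 metformin cells held 50% of the envelope UMIs, 41.8% and 25.2% of keratinocyte-like cells had one, the summed log2 ratio was -3.17 in keratinocyte-like and -3.05 in suprabasal-like cells (otherwise -2.59 and -1.64), 1 gene was higher in suprabasal-like cells, and the granular-like level was 32258 and 4871 CPM. Granular-like levels were 12608 and 6626 CPM with up to 20% mitochondrial counts (suprabasal-like log2 ratio -1.57), 12591 and 6749.6 with doublets kept, 22203 and 6729 with each library clustered alone, 46782 in control with the envelope genes in the clustering, 34577 and 28741 as a mean over cells, and 17666 in metformin without its richest cell. Leiden resolution 2 gave a suprabasal-like log2 ratio of -1.45 with 5 genes higher. Thinning to 1500 UMIs gave 31 and 54 cells, and 30.03% and 13.1% of keratinocyte-like cells with a UMI. Without the cells of over 1000 Lce UMIs 48 and 67 cells held 50%, and 67 without the richest metformin cell. A keratin axis kept 46.2% of pairs in order. Keratinocyte-like log2 ratios were -2.36 as a mean over cells, -2.77 scaled to the median gene, -2.94 without the top cell of each gene (1 gene higher), -2.26 in interfollicular cells and -0.038 in granular-like cells alone, where 4 genes were lower, 0 higher, and Sprr1a (0.33), Lce1m (0.69), Crct1 (0.28), Flg (0.39), Ivl (0.47), Flg2 (0.090) and Sprr2h (0.31) reversed. Suprabasal-like values were -1.80 with 5 higher as a mean over cells, -2.17 with 0 higher without the top cells, -1.04 with 6 higher in the top 20% of the axis, and -2.14 without the richest metformin cell. Within the third spinous-like cluster the log2 ratio of Lor reversed to -1.07 without the richest cell of each library. These alternatives of granular-like cells alone and of left-out rich cells were chosen after seeing the data.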

Other observations

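Lor had UMIs in the hair lineage of the metformin library. In the class with markers of hair matrix, hair shaft and inner root sheath, 201 of 1513 metformin cells (13.3%) had a Lor UMI, 280 UMIs in all, and 2.47% after thinning to 1500 UMIs. Basal-like cells of the same library had 3.19% and, thinned, 0.415%, and fibroblast-like cells 0.918% and 0.446%. In control, 5 of 32 such hair cells had a Lor UMI. The median depth was 10187 UMIs in the metformin hair cells and 3195 in the fibroblast-like cells.

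Among the calcium-binding neighbours of the complex, S100a8 was at 16.2 CPM in suprabasal-like control cells and at 75.3 CPM in those of metformin, a ratio of 4.64 (4.11 to 5.25). Its counts along the axis rested on the equivalent of 3.67 equally weighted cells. S100a6 was at 798 and 1480.3 CPM, a ratio of 1.86 (1.82 to 1.89).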
